A study of Mus musculus with 6 samples.

Results

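Interferon-stimulated genes are the genes that cells switch on when they sense interferon, a family of secreted proteins made in response to viruses, foreign nucleic acids and some tumours. The set examined here holds 34 of them, chosen by gene symbol from the 39179 genes listed for each library, and all 34 were abundant enough to be tested. They were compared between liver tumours driven by Myc with NrasG12V and liver tumours driven by Myc with Akt1. The tumours arose in C57BL/6 wild-type mice after hydrodynamic injection, which forces DNA into hepatocytes, of transposons that insert their cargo into the genome. Every tumour received Myc, a transcription factor of growth, so the groups differed in the second gene: NrasG12V, a small GTPase locked in its active state, or Akt1, a kinase downstream of phosphoinositide 3-kinase. The number of days after injection, the age and the sex of the mice were not given in the labels, and untreated liver and tumours with Myc alone were not analysed here. There were 3 libraries of polyadenylated RNA per group.

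Type I interferons bind the receptor IFNAR1/IFNAR2, whose kinases JAK1 and TYK2 activate the complex ISGF3. It holds STAT2 and IRF9 and binds the interferon-stimulated response element (ISRE) in target promoters. Interferon gamma signals through IFNGR1/IFNGR2 and acts on another element, the gamma-activated site (GAS). Some of the genes can also be switched on without interferon, by IRF3 or by IRF7 once a sensor of foreign RNA or DNA is engaged. In liver, hepatocytes as well as resident and infiltrating immune cells express interferon-stimulated genes.

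The promoters of several members carried the ISRE, and those of 4 members that were higher in Myc/Akt1 are shown with those of 2 that were not called, so that the element can be seen in both kinds of gene. Each is a stretch of 60 bases before the RefSeq start of the gene on GRCm38.p6, read along the gene's own strand, with ISRE matches in capitals. The ISRE searched for was GAAA, any 2 bases, GAAA, which reads as TTTC, any 2 bases, TTTC when it lies on the other strand.
Rsad2, chr12:26456538-26456597, minus strand, called: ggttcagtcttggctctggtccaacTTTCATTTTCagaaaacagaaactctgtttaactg
Ifit1, chr19:34640769-34640828, plus strand, called: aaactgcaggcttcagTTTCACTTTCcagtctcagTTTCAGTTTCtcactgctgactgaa
Ifit3, chr19:34583365-34583424, plus strand, called: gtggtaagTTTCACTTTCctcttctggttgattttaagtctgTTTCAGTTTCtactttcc
Cxcl10, chr5:92349068-92349127, minus strand, called: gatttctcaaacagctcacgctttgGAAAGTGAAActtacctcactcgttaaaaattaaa
Isg15, chr4:156200856-156200915, minus strand, not called: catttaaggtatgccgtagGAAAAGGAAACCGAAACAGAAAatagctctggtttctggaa
Oas1a, chr5:120907526-120907585, minus strand, not called: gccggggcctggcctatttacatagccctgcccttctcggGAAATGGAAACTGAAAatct

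Ifit1 and Ifit3 each held 2 matches, Isg15 held 3 that overlap end to end, and Oas1a held 2 that overlap just before the start. RefSeq windows of 250 bases before to 50 after the start were matched for 25 of the 34 members. Among these, 12 (48%) held an ISRE, against 3.99% of the 27025 genes with a window: Ifit1, Ifit3, Rsad2, Bst2, Oas1a, Oas3, Eif2ak2, Isg15, Ddx58, Ifih1, Stat2 and Cxcl10. The ISRE was present in the windows of 8 members that were higher in Myc/Akt1 and absent from the windows of 7 others that were, among them Oasl1, Dtx3l and Cmpk2. The GAS letters TTCNNNGAA, which read the same on both strands, were in 5 of the 25 (Ifit2, Bst2, Oas1a, Eif2ak2 and Ifi35), against 9.55% of all genes with a window. In Bst2 the GAS and ISRE matches overlap. Mx1, Mx2, Oas2, Usp18, Dhx58, Zbp1, Parp9, Parp14 and Rtp4 were not matched. A match is a run of letters and not a shown binding site.

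Values are CPM, a gene's reads after each library was scaled to the same total. The libraries held 17881282 to 27865094 reads, 1 read was worth 0.0359 to 0.0559 CPM, and 3 reads, the limit that a count of 0 allows, came to 0.108 to 0.168 CPM; these floors cover counting error only. Transcripts of the delivered genes fitted the labels: mean Nras CPM was 3.05-fold higher in Myc/NrasG12V, mean Akt1 CPM was 4.30-fold higher in Myc/Akt1, and Myc was at 153 and 154 CPM. Hepatocyte markers summed to 164624 to 205274 CPM in Myc/NrasG12V and 46179 to 64191 CPM in Myc/Akt1, with 5 of 10 called, all of them higher in Myc/NrasG12V. Most of that sum was Alb, whose mean was 3.30-fold higher in Myc/NrasG12V without overlap but which was not called (limma adjusted p = 0.184). The means of Apoa2 and Ttr, also not called, were 1.59-fold and 1.90-fold higher in Myc/Akt1. A gene was called when its Benjamini-Hochberg adjusted p in limma, taken over all 14365 genes tested, was under 0.05. A log2 difference is Myc/NrasG12V minus Myc/Akt1 on log2(CPM + 1), which understates the change of genes near 1 CPM, and a fold is the ratio of group mean CPM. Nothing in the labels tells whether each library came from its own mouse, so p-values measure the spread between these libraries, which may be technical.

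Among the interferon-stimulated genes, 19 of 34 were higher in Myc/Akt1 and 0 were higher in Myc/NrasG12V by limma, while 15 were not called. Of all genes tested, 29.5% were called higher in Myc/Akt1 and 10% higher in Myc/NrasG12V. At an unadjusted p under 0.05, limma had 25 members higher in Myc/Akt1 and 1, Oas2, higher in Myc/NrasG12V, and edgeR and DESeq2 each called Oas2 higher in Myc/NrasG12V. The lowest Myc/Akt1 library lay above the highest Myc/NrasG12V library for 22 members, and the reverse held for 0, against 38.0% and 14.8% of all genes tested. The median log2 difference of the members was -0.90, from -2.72 for Oasl1 to 0.64 for Oas2, and that of all genes was -0.26. Trimmed-mean factors (TMM) brought the median of all genes to -0.04, median-of-ratios factors to -0.01 and upper-quartile factors to 0.05. Under these factors 11, 10 and 9 members were higher in Myc/Akt1, beside 19.4%, 18.3% and 16.4% of all genes, and 0, 1 and 1 were higher in Myc/NrasG12V. The same 8 members were called in each of 16 alternative treatments of the data: Ifit1, Mx1, Rsad2, Cmpk2, Oasl1, Parp9, Dtx3l and Cxcl10.

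**Figure D1:**
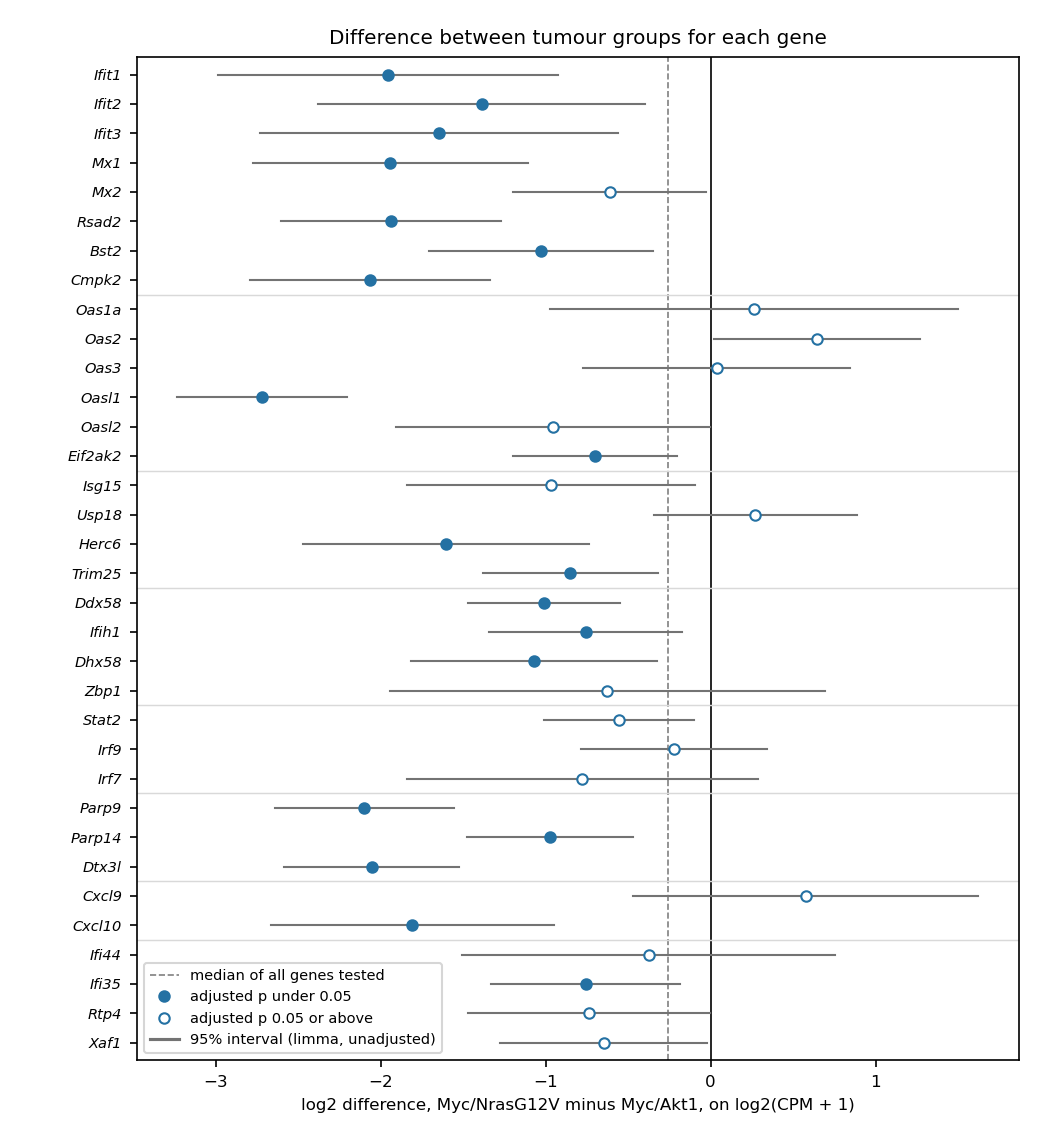
Log2 difference (Myc/NrasG12V minus Myc/Akt1, limma on log2(CPM + 1)) of each of the 34 interferon-stimulated genes with its unadjusted 95% interval, 3 libraries per group; filled points are called genes, the dashed line marks the median of all genes tested (-0.26) and grey lines part the role groups. Oasl1 (-2.72) lies farthest to the Myc/Akt1 side and Oas2 (0.64) farthest to the Myc/NrasG12V side; the sign for Irf9 turns positive with each of the 3 other scaling factors.

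The Myc/NrasG12V libraries stood apart from one another for these genes. Replicate 3 was the lowest of all 6 libraries for 28 of the 34 members, against 22.6% of all genes tested, and replicate 1 was the highest of its group for 30, against 25.5%. Within Myc/Akt1, replicate 1 was the lowest of its group for 26 members (26.8% of all genes) and replicate 3 the highest for 23 (37.3%). The median member was at 3.70, 3.27 and 2.74 on the log2(CPM + 1) scale in Myc/NrasG12V replicates 1, 2 and 3 and at 4.16, 4.43 and 4.78 in Myc/Akt1 replicates 1, 2 and 3. Summed over the 34 members the level was 420 to 751 CPM in Myc/NrasG12V and 1024 to 1265 CPM in Myc/Akt1. Without Myc/NrasG12V replicate 3, 17 members were higher in Myc/Akt1 and 2, Oas1a and Oas2, were higher in Myc/NrasG12V. Without Myc/Akt1 replicate 2, 12 were higher in Myc/Akt1, and the share of all genes called so was 20.6% in that fit, against 32.6% without Myc/NrasG12V replicate 3.

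**Figure D2:**
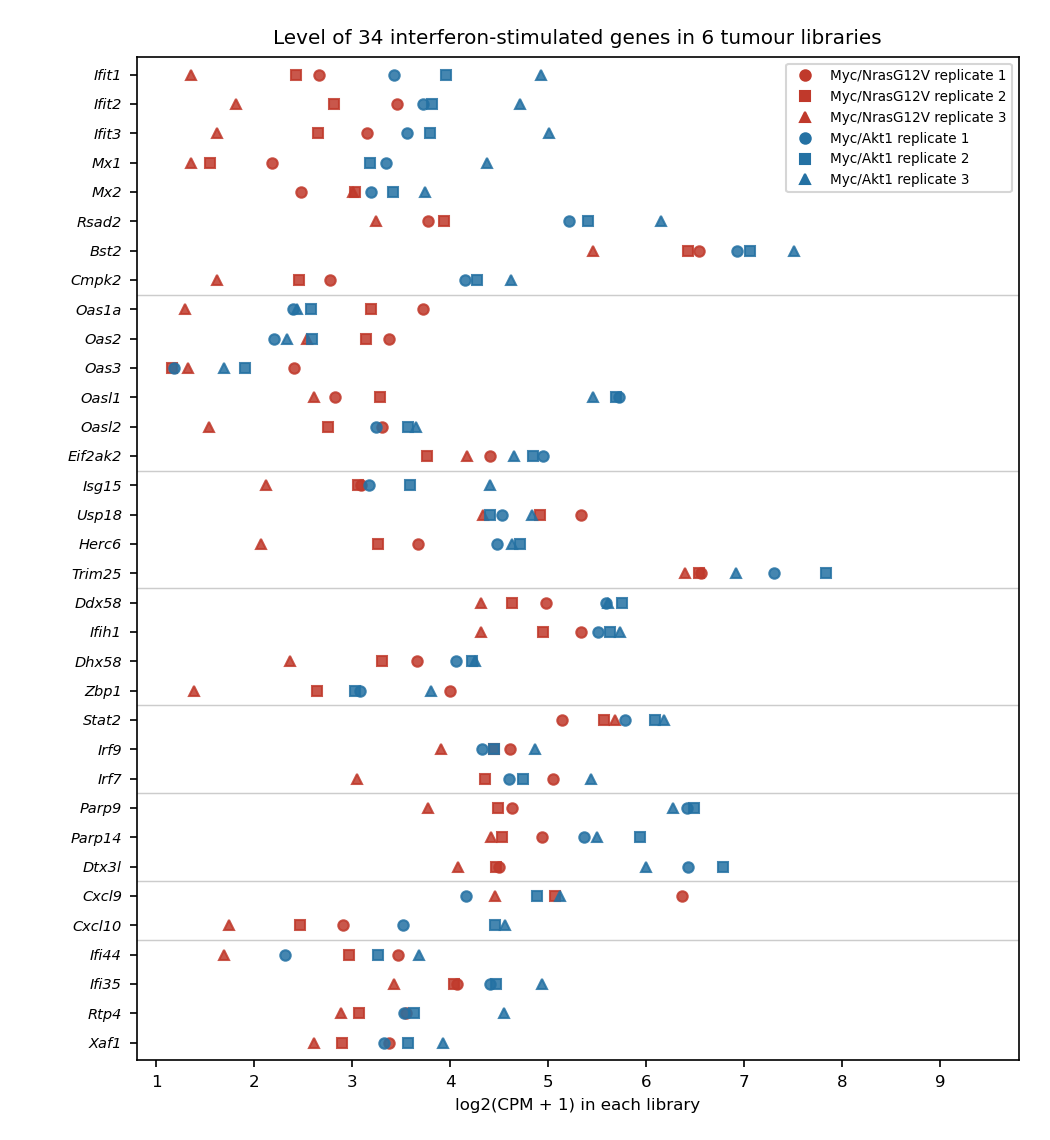
Level of each of the 34 interferon-stimulated genes in every library, as log2(CPM + 1) on the horizontal axis; each point is 1 library, red for Myc/NrasG12V and blue for Myc/Akt1, with a shape per replicate. Myc/NrasG12V replicate 3 is the lowest of the 6 points for 28 genes.

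Markers of other cells differed between the same libraries, and in bulk tissue fewer cells of a type and less RNA per cell cannot be told apart. T cell markers summed to 14.8 to 37.6 CPM in Myc/NrasG12V, highest in replicate 1, and to 7.34 to 10.05 CPM in Myc/Akt1. Of the 10, 5 were called higher in Myc/NrasG12V, and 9 had positive estimates. The exception was Cd4, 1.94-fold higher in Myc/Akt1 without overlap but not called (limma adjusted p = 0.06998). Macrophage and Kupffer cell markers summed to 310 to 484 CPM, again highest in replicate 1, against 196 to 252 CPM, with 4 of 11 called higher in Myc/NrasG12V. Monocyte markers summed to 41.4 to 74.8 CPM against 18.7 to 19.6 CPM, with 3 of 5 called higher in Myc/NrasG12V. Those 3 were Plac8, F13a1 and Chil3, the last at 2.58 CPM in Myc/NrasG12V replicate 1 and 40.8 CPM in replicate 3. Ly6c2 and Ccr2 overlapped between the groups and were not called (limma adjusted p = 0.853 and 0.743). Neutrophil markers summed to 30.0 to 184 CPM, highest in replicate 3, against 3.55 to 4.62 CPM, and all 7 that could be tested, of 8, were called higher in Myc/NrasG12V. Erythroid markers summed to 300 to 1869 CPM, highest in replicate 3, against 49.8 to 103 CPM, with 6 of 8 called higher in Myc/NrasG12V.

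Natural killer cell markers summed to 4.81 to 7.83 CPM against 3.73 to 7.25 CPM, with 1 of 6 tested called in each direction and sums that overlapped between the groups. Conventional dendritic cell markers summed to 15.4 to 18.1 CPM against 18.8 to 24.2 CPM, with 1 of 6 called higher in Myc/Akt1. That gene was Itgax, with means of 4.13 and 9.03 CPM and groups that overlapped (limma adjusted p = 0.0422). Clec9a went the other way without overlap, at 4.49 and 2.64 CPM, and was not called (limma adjusted p = 0.0791). The estimates of the list lay 3 on each side. Markers of plasmacytoid dendritic cells, a rich source of type I interferon, summed to 59.4 to 228 CPM in Myc/NrasG12V and 28.7 to 94.0 CPM in Myc/Akt1, and 0 of the 2 that could be tested, of 6, were called. Nearly all of that sum was Ly6d, at 155 ± 85.8 and 69.3 ± 36.7 CPM (SD, n = 3; limma adjusted p = 0.151). Siglech, a defining marker of these cells, was at 1.24, 0.230 and 0 CPM in Myc/NrasG12V replicates 1, 2 and 3 and at 0.382, 0.431 and 0.773 CPM in Myc/Akt1 replicates 1, 2 and 3. B cell markers summed to at most 5.01 CPM in any library. The part of these cells in the levels of the interferon-stimulated genes was not tested.

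Of the 8 antiviral effectors, 7 were higher in Myc/Akt1: Ifit1, Ifit2, Ifit3, Mx1, Rsad2, Bst2 and Cmpk2. Their folds ran from 1.98 for Bst2 to 5.28 for Mx1, and the median log2 difference of the group was -1.79. IFIT proteins bind viral RNA that lacks the host cap mark, MX proteins are GTPases that block incoming viruses, RSAD2 (viperin) makes a chain-terminating nucleotide with its neighbour CMPK2, and BST2 (tetherin) holds budding virions at the cell surface.

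Rsad2 (ENSMUSG00000020641, chr12:26442746-26456452) was at 12.7, 14.3 and 8.45 CPM in Myc/NrasG12V replicates 1, 2 and 3 and at 36.0, 41.3 and 70.0 CPM in Myc/Akt1 replicates 1, 2 and 3. Every Myc/Akt1 library was above every Myc/NrasG12V library, and the means, 11.8 ± 3.04 and 49.1 ± 18.3 CPM (SD, n = 3), differed 4.15-fold, with a limma adjusted p of 0.00136. Cmpk2 (ENSMUSG00000020638, chr12:26469204-26479837), which lies 12751 bases from Rsad2 on the opposite strand, was at 5.83, 4.499 and 2.07 CPM in Myc/NrasG12V replicates 1, 2 and 3 and at 16.8, 18.3 and 23.6 CPM in Myc/Akt1 replicates 1, 2 and 3. The pair moved alike: Cmpk2 groups did not overlap either, and its mean was 4.73-fold higher in Myc/Akt1 (limma adjusted p = 0.00151). Neither gene lost its call in any of the 16 alternatives, with adjusted p up to 0.00722 for Rsad2 and 0.00850 for Cmpk2.

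Mx1 (ENSMUSG00000000386, chr16:97447035-97462907) was at 3.53, 1.93 and 1.57 CPM in Myc/NrasG12V replicates 1, 2 and 3 and at 9.16, 8.11 and 19.8 CPM in Myc/Akt1 replicates 1, 2 and 3. Its groups did not overlap, and its mean was 5.28-fold higher in Myc/Akt1, with a limma adjusted p of 0.00379. Mx2, the other member of the family and 72400 bases away, was at 6.26 ± 1.46 and 10.1 ± 2.16 CPM (SD, n = 3), its limma adjusted p was 0.0890, and was not called in any of the 16 alternatives, although its groups did not overlap.

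Ifit1 (ENSMUSG00000034459, chr19:34640871-34650009), whose promoter stretch above holds a pair of ISRE matches, was at 5.35, 4.36 and 1.57 CPM in Myc/NrasG12V replicates 1, 2 and 3 and at 9.76, 14.6 and 29.5 CPM in Myc/Akt1 replicates 1, 2 and 3. The groups did not overlap and spread widely within themselves, with the lowest Myc/NrasG12V value in replicate 3 and the highest Myc/Akt1 value in replicate 3. The means differed 4.78-fold, and the limma adjusted p was 0.00951. Ifit2 and Ifit3 followed the same order of libraries, with means 2.73-fold and 3.60-fold higher in Myc/Akt1 and limma adjusted p of 0.0336 and 0.0242. Without Myc/Akt1 replicate 3 the Ifit3 fold was 2.33. Ifit3 has a close copy, Ifit3b, and Ifit1 has Ifit1bl1, so the split of reads between such copies is uncertain.

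The calls of Ifit2, Ifit3 and Bst2 ended under each of the 3 other scaling factors, with adjusted p over the 16 alternatives of 0.0171 to 0.134, 0.0203 to 0.0787 and 0.0234 to 0.165. Ifit3 was not called without Myc/Akt1 replicate 3 (limma adjusted p = 0.0738) or without Myc/NrasG12V replicate 2 (0.0502), and Bst2 was not called without Myc/Akt1 replicate 2 (0.0579) or 3 (0.0812). The Ifit2 call ended when any 1 library other than Myc/NrasG12V replicate 1 was left out, at limma adjusted p of 0.0549 to 0.112. Per kilobase of exon, Bst2 had the highest level of the 34 members, at 81.2 CPM per kb in Myc/NrasG12V and 161 CPM per kb in Myc/Akt1.

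The oligoadenylate synthetase (OAS) family did not move as a block. Oasl1 was higher in Myc/Akt1 with the largest log2 difference of all 34 members, while the enzymes Oas1a, Oas2 and Oas3 had positive estimates that were not called. OAS1A, OAS2 and OAS3 sense viral RNA with paired strands and make a messenger that activates RNase L. The OAS-like proteins OASL1 and OASL2 carry ubiquitin-like repeats, and mouse OASL1 is known to hold back translation of Irf7 mRNA. EIF2AK2 (PKR), grouped with them, is a kinase that senses such RNA and stops translation.

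Oasl1 (ENSMUSG00000041827, chr5:114923240-114937915) was at 6.06, 8.72 and 5.09 CPM in Myc/NrasG12V replicates 1, 2 and 3 and at 51.8, 50.6 and 43.0 CPM in Myc/Akt1 replicates 1, 2 and 3. The 3 libraries of each group lay close together with a wide gap between groups, and Myc/Akt1 replicate 3, the highest of all 6 libraries for 20 members, was the lowest of its group here. The means, 6.63 ± 1.88 and 48.5 ± 4.75 CPM (SD, n = 3), differed 7.32-fold, with a log2 difference of -2.72 ± 0.23 (SE) and a limma adjusted p of 1.18e-04. Oasl2, its neighbour at a gap of 11005 bases, was at 8.88, 5.74 and 1.90 CPM in Myc/NrasG12V replicates 1, 2 and 3 and at 8.44, 10.9 and 11.6 CPM in Myc/Akt1 replicates 1, 2 and 3. Those groups overlapped, and the limma adjusted p was 0.1. Oasl2 was called higher in Myc/Akt1 without Myc/NrasG12V replicate 1 (limma adjusted p = 0.0347), and adjusted p ran up to 0.426 over the 16 alternatives.

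Oas1a was at 12.2, 8.13 and 1.45 CPM in Myc/NrasG12V replicates 1, 2 and 3 and at 4.29, 4.99 and 4.41 CPM in Myc/Akt1 replicates 1, 2 and 3. The Myc/NrasG12V libraries lay on both sides of the Myc/Akt1 libraries, which were close together at 4.56 ± 0.376 CPM (SD, n = 3). The log2 difference was 0.26 with a limma adjusted p of 0.730, it was -0.23 without Myc/NrasG12V replicate 1, and Oas1a was called higher in Myc/NrasG12V without replicate 3 (limma adjusted p = 0.0139, the lowest over the alternatives, against a highest of 0.972). Oas1a has a close copy, Oas1g, so its reads are uncertain in the same way as those of Ifit3.

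Oas2 was at 9.41, 7.81 and 4.81 CPM in Myc/NrasG12V replicates 1, 2 and 3 and at 3.61, 5.02 and 4.04 CPM in Myc/Akt1 replicates 1, 2 and 3, so that replicate 3 of Myc/NrasG12V fell among the Myc/Akt1 values. Its limma adjusted p was 0.0940, and 0.0177 without Myc/NrasG12V replicate 3. Over the 16 alternatives adjusted p ran from 0.00745 to 0.275, and 5 of them called Oas2 higher in Myc/NrasG12V: DESeq2, edgeR, median-of-ratios factors, upper-quartile factors and leaving out Myc/NrasG12V replicate 3. Oas3 had the lowest level per length of the 34 members in both groups, at 0.332 and 0.295 CPM per kb, and a log2 difference of 0.04 (limma adjusted p = 0.948). Its estimate was -0.35 when Myc/NrasG12V replicate 1 was left out and -0.17 when Myc/Akt1 replicate 1 was. Eif2ak2 was 1.64-fold higher in Myc/Akt1, at 16.6 ± 3.78 and 27.2 ± 2.88 CPM (SD, n = 3; limma adjusted p = 0.0322). Its call ended under all 3 other factors and when Myc/Akt1 replicate 1 or 2 or Myc/NrasG12V replicate 2 was left out, where limma adjusted p was 0.121, 0.0976 and 0.109, within a range of 0.0302 to 0.224 over the alternatives.

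The contrast inside the family was also measured within each library, for pairs chosen after their values had been seen. The log2 ratio of Oasl1 to Oas1a (each as CPM + 1) was -0.90, 0.09 and 1.31 in Myc/NrasG12V replicates 1, 2 and 3 and 3.32, 3.11 and 3.03 in Myc/Akt1 replicates 1, 2 and 3. The ratio of Oasl1 to its neighbour Oasl2 averaged 0.37 ± 0.79 and 2.14 ± 0.34 (SD, n = 3). Neither ratio overlapped between the groups. An exact permutation test gave a two-sided p of 0.1 for each of the 5 ratios computed, raw and adjusted, which is the smallest that 3 against 3 libraries allow.

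**Figure D3:**
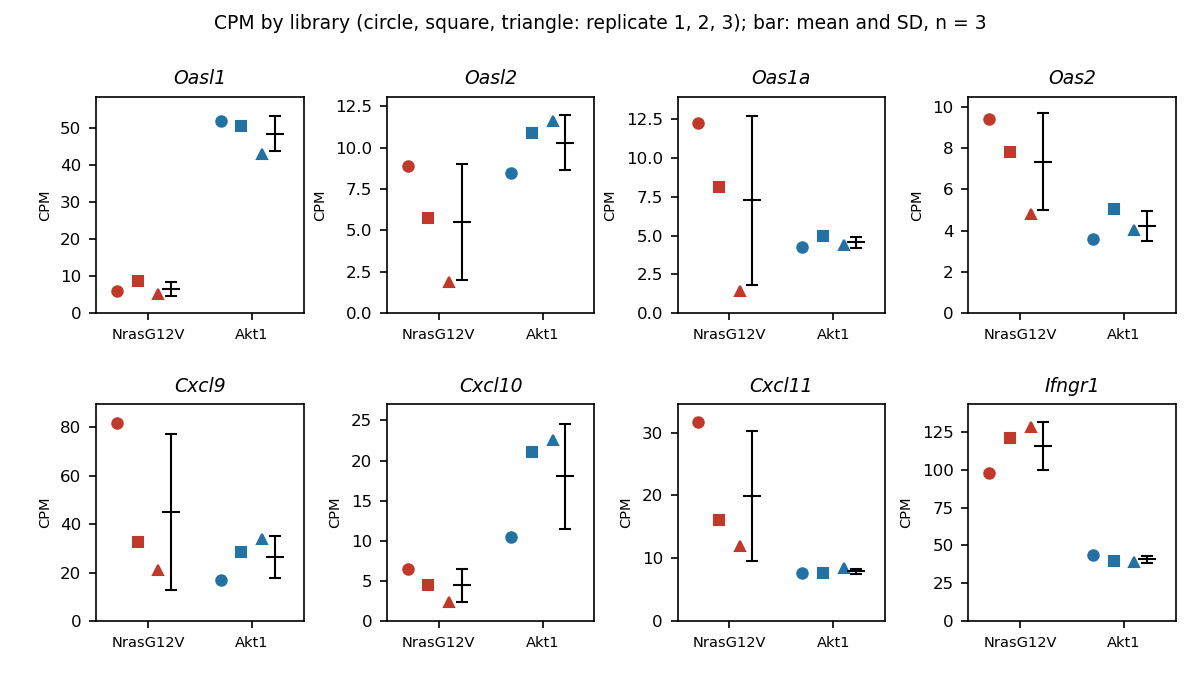
CPM in every library (points, with a shape per replicate) beside the group mean and SD (cross lines and whiskers, n = 3 per group) for OAS family members, the 3 ligands of CXCR3 and Ifngr1. Oasl1 is at 43.0 to 51.8 CPM in Myc/Akt1 and 5.09 to 8.72 CPM in Myc/NrasG12V, while Oas1a and Cxcl9 overlap between the groups.

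In the ISG15 pathway, Herc6 and Trim25 were higher in Myc/Akt1, and Isg15 and Usp18 were not called. ISG15 is a ubiquitin-like protein that HERC6 attaches to targets in mice, USP18 removes it and also restrains the type I interferon receptor, and TRIM25 is an E3 ligase that helps activate the sensor RIG-I. Herc6 was at 11.7, 8.63 and 3.19 CPM in Myc/NrasG12V replicates 1, 2 and 3 and at 21.3, 25.2 and 23.9 CPM in Myc/Akt1 replicates 1, 2 and 3. Its groups did not overlap, the mean was 2.98-fold higher in Myc/Akt1 (limma adjusted p = 0.0106), and of the 16 alternatives only edgeR ended the call (adjusted p = 0.0596, the highest, with a lowest of 0.00375). Isg15 was at 7.50, 7.35 and 3.36 CPM in Myc/NrasG12V replicates 1, 2 and 3 and at 8.02, 11.0 and 20.3 CPM in Myc/Akt1 replicates 1, 2 and 3. Those groups were separated by a narrow gap, and the mean was 2.16-fold higher with a limma adjusted p of 0.0753; none of the 16 alternatives called Isg15, the lowest adjusted p being 0.0583. Usp18 overlapped between the groups, at 29.3 ± 10.1 and 23.3 ± 3.82 CPM (SD, n = 3; limma adjusted p = 0.455). Trim25 was 1.87-fold higher in Myc/Akt1, at 89.7 ± 5.66 and 168 ± 54.7 CPM (SD, n = 3; limma adjusted p = 0.0194). The Trim25 call ended under all 3 other factors and on leaving out Myc/Akt1 replicate 1 (limma adjusted p = 0.0567) or 2 (0.0601), within a range of 0.00723 to 0.150.

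All 3 RIG-I-like receptors, the cytosolic sensors of viral RNA, were higher in Myc/Akt1. Ddx58, which encodes RIG-I, was at 30.4, 23.8 and 19.0 CPM in Myc/NrasG12V replicates 1, 2 and 3 and at 47.0, 53.0 and 48.0 CPM in Myc/Akt1 replicates 1, 2 and 3. The groups did not overlap, and the mean was 2.02-fold higher in Myc/Akt1 with a limma adjusted p of 0.00509; upper-quartile factors alone ended the call (adjusted p = 0.0502, the highest, with a lowest of 0.00486). Ifih1, which encodes the sensor MDA5, was 1.65-fold higher at 29.4 ± 10.3 and 48.4 ± 3.92 CPM (SD, n = 3; limma adjusted p = 0.0450). Dhx58, which encodes the regulator LGP2, was 2.08-fold higher at 8.22 ± 3.80 and 17.1 ± 1.23 CPM (SD, n = 3; limma adjusted p = 0.0301). Both of these calls ended under the 3 other factors, where limma adjusted p was up to 0.312 for Ifih1 and 0.147 for Dhx58, and with DESeq2 and edgeR, where the highest adjusted p was 0.386 and 0.174. Leaving out any 1 library other than Myc/NrasG12V replicate 1 ended the Ifih1 call (limma adjusted p = 0.0615 to 0.113), and leaving out any Myc/Akt1 library or Myc/NrasG12V replicate 2 ended the Dhx58 call (0.0530 to 0.0885). Zbp1, a sensor of Z-form nucleic acids that can start necroptosis, overlapped widely. It was at 15.0, 5.23 and 1.62 CPM in Myc/NrasG12V replicates 1, 2 and 3 against 7.14 to 13 CPM in Myc/Akt1, with a limma adjusted p of 0.422.

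None of the 3 transcription factor genes was called by limma, though Stat2 was at an unadjusted p under 0.05. STAT2 and IRF9 are parts of ISGF3, and IRF7 amplifies type I interferon production. Stat2 was at 34.3, 46.4 and 50.3 CPM in Myc/NrasG12V replicates 1, 2 and 3 and at 54.2, 67.1 and 71.4 CPM in Myc/Akt1 replicates 1, 2 and 3. Its groups did not overlap, and unlike most members its lowest library was Myc/NrasG12V replicate 1. The mean was 1.47-fold higher in Myc/Akt1 with a limma adjusted p of 0.0551, and it was called without Myc/NrasG12V replicate 3 (0.0275) and in a fit with the replicate block (0.0365), within a range up to 0.456 over the alternatives. Irf7 was at 32.1, 19.5 and 7.27 CPM in Myc/NrasG12V replicates 1, 2 and 3 and at 23.2, 25.9 and 42.3 CPM in Myc/Akt1 replicates 1, 2 and 3, with overlap and a limma adjusted p of 0.218. The Irf9 means were 19.4 and 22.7 CPM with a log2 difference of -0.22 (limma adjusted p = 0.505), which changed sign under every other scaling factor.

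Parp9 and Dtx3l were higher in Myc/Akt1 by over 4-fold, with the lowest adjusted p of the set after Oasl1, and Parp14 was 2.01-fold higher. PARP9 and the E3 ligase DTX3L form a complex that ubiquitinates histones and viral proteins in interferon responses, and PARP14 transfers ADP-ribose. Parp9 (ENSMUSG00000022906, chr16:35938470-35972605) was at 23.7, 21.4 and 12.7 CPM in Myc/NrasG12V replicates 1, 2 and 3 and at 84.6, 88.9 and 76.5 CPM in Myc/Akt1 replicates 1, 2 and 3. Dtx3l (ENSMUSG00000049502, chr16:35926511-35939151) was at 21.6, 21.2 and 15.9 CPM in Myc/NrasG12V replicates 1, 2 and 3 and at 85.4, 109 and 63.0 CPM in Myc/Akt1 replicates 1, 2 and 3. For both genes a wide gap separated the groups. Parp9 was 4.32-fold higher (log2 difference -2.10 ± 0.24, SE; limma adjusted p = 3.68e-04) and Dtx3l 4.39-fold higher (limma adjusted p = 3.76e-04), and neither lost its call in any of the 16 alternatives, where adjusted p was at most 0.00308 and 0.00298. The genes stand head to head on opposite strands and their models overlap by 682 bases. The library kit keeps strand, but the strand setting of the counting was not given in the sources used here, so reads in that overlap cannot be assigned with certainty. Parp14 (chr16:35832874-35871544) had a limma adjusted p of 0.00878, and its call ended with edgeR (adjusted p = 0.0556) and with median-of-ratios (0.0542) and upper-quartile factors (0.0716).

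The chemokines Cxcl9 and Cxcl10 did not move together. Both encode ligands of CXCR3, the receptor that draws activated T cells and natural killer cells, and they lie 18558 bases apart on chromosome 5. Cxcl10 (ENSMUSG00000034855, chr5:92346638-92348889) was at 6.49, 4.55 and 2.35 CPM in Myc/NrasG12V replicates 1, 2 and 3 and at 10.5, 21.03 and 22.6 CPM in Myc/Akt1 replicates 1, 2 and 3. The groups did not overlap, and the mean was 4.04-fold higher in Myc/Akt1 with a log2 difference of -1.81 ± 0.38 (SE) and a limma adjusted p of 0.00617. Cxcl9 (ENSMUSG00000029417, chr5:92321347-92328079), a classical target of interferon gamma, was at 81.7, 32.6 and 20.97 CPM in Myc/NrasG12V replicates 1, 2 and 3 and at 16.9, 28.5 and 33.9 CPM in Myc/Akt1 replicates 1, 2 and 3. These groups overlapped, with replicate 1 of Myc/NrasG12V far above the rest, and the limma adjusted p was 0.349. The mean of Cxcl9 in Myc/Akt1 was 0.586 of that in Myc/NrasG12V, and 0.986 of it without Myc/NrasG12V replicate 1. That library had the highest sums of several marker lists, T cell and macrophage and Kupffer cell markers among them. It was also the highest of its group for 30 of the 34 members, and a link of Cxcl9 to any cell type was not tested.

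Within each library the log2 ratio of Cxcl10 to Cxcl9 (each as CPM + 1) was -3.46, -2.60 and -2.71 in Myc/NrasG12V replicates 1, 2 and 3 and -0.64, -0.42 and -0.57 in Myc/Akt1 replicates 1, 2 and 3. The ratio separated the groups in full (exact permutation p = 0.1, two-sided, the smallest possible), although Cxcl9 alone did not. Because the pair was chosen after its values had been seen, this separation is a description and no independent test. Cxcl11, the third ligand of CXCR3, was at 31.7, 16.1 and 12.0 CPM in Myc/NrasG12V replicates 1, 2 and 3 and at 7.72, 7.57 and 8.41 CPM in Myc/Akt1 replicates 1, 2 and 3. It was 2.52-fold higher in Myc/NrasG12V, opposite to Cxcl10, with a limma adjusted p of 0.0251. That call ended without any 1 Myc/Akt1 library or Myc/NrasG12V replicate 1, at limma adjusted p of 0.0541 to 0.0757, within a range of 1.57e-04 to 0.0757 over the 16 alternatives. Cxcr3 itself was at 0.472 and 0.449 CPM on average (limma adjusted p = 0.932).

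Of the 4 remaining members, Ifi35 was higher in Myc/Akt1 and Ifi44, Rtp4 and Xaf1 were not called. IFI35 is a leucine zipper protein induced by interferon, and XAF1 binds the apoptosis inhibitor XIAP. Ifi35 was 1.73-fold higher at 13.7 ± 3.36 and 23.7 ± 5.20 CPM (SD, n = 3; limma adjusted p = 0.0408), and this call ended in 13 of the 16 alternatives, among them each of the 3 other factors and each library left out (limma adjusted p = 0.0564 to 0.117 for the latter). Rtp4 and Xaf1 were at an unadjusted p under 0.05 with adjusted p of 0.101 and 0.0933 in limma, and Ifi44 overlapped with an adjusted p of 0.579.

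Transcripts of the interferons themselves were near the limit of detection in every library. None of the 17 interferon genes found was abundant enough to be tested, and 13 of them had 0 reads in all 6 libraries. Ifnb1 had 1 read in the Myc/NrasG12V libraries and 0 in Myc/Akt1, Ifnk 16 and 4, Ifnz 3 and 0, and Ifng 4 and 6, so no difference was detectable at this depth. A library of polyadenylated RNA from bulk tissue can miss transcripts carried by few cells.

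Among the 18 tested genes in the list of receptors, their kinases, regulators and IRF factors, 4 (22.2%) were higher in Myc/NrasG12V and 1 (5.56%) was higher in Myc/Akt1, with a median log2 difference of 0.22. Those higher in Myc/NrasG12V were Socs3, Ifngr1, Ifnlr1 and Irf5, and the one higher in Myc/Akt1 was Ifngr2. Socs3, an inhibitor of JAK kinases, was 6.98-fold higher at 36.1 ± 3.56 against 5.16 ± 0.876 CPM (SD, n = 3; limma adjusted p = 9.52e-05). Irf5, a factor of inflammatory genes, was 2.25-fold higher (limma adjusted p = 0.0112), and 0.0501 without Myc/Akt1 replicate 1. The 2 chains of the interferon gamma receptor moved in opposite directions. Ifngr1, its ligand-binding chain, was at 98.2, 121 and 129 CPM in Myc/NrasG12V replicates 1, 2 and 3 and at 43.5, 39.9 and 39.0 CPM in Myc/Akt1 replicates 1, 2 and 3 (limma adjusted p = 3.57e-04). Ifngr2, its signalling chain, was 1.71-fold higher in Myc/Akt1 at 22.8 ± 3.18 and 39.1 ± 0.727 CPM (SD, n = 3; limma adjusted p = 0.00890), a call that ended under the 3 other factors, edgeR and DESeq2 with adjusted p up to 0.110. The log2 ratio of Ifngr2 to Ifngr1 averaged -2.29 ± 0.21 in Myc/NrasG12V and -0.06 ± 0.09 in Myc/Akt1 (SD, n = 3), without overlap. That separation follows from the opposite moves of the chains, and the pair was chosen after its values had been seen, so it adds no support of its own. Under the same 3 factors, in that order, 6, 7 and 9 genes of this list were higher in Myc/NrasG12V and 0 were higher in Myc/Akt1.

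The chains of the type I receptor and their kinases were not called: limma adjusted p was 0.301 for Ifnar1, 0.510 for Ifnar2, 0.463 for Jak1 and 0.171 for Tyk2, with estimates between 0.20 and 0.39. Ifnar1 was called higher in Myc/NrasG12V by DESeq2, edgeR and 2 of the other factors (adjusted p from 0.0159), and Tyk2 by both tools and all 3 factors (from 0.00655). Irf1 and Irf3 had estimates of -0.02 and -0.12 with limma adjusted p of 0.958 and 0.664.

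Of 24 tested adaptors, kinases and nucleases of nucleic acid sensing, 2 (8.33%) were higher in Myc/NrasG12V and 3 (12.5%) were higher in Myc/Akt1, against 10% and 29.5% of all genes tested. Tlr3, an endosomal RNA sensor, was 1.88-fold higher in Myc/Akt1 (limma adjusted p = 0.0167), Myd88, the adaptor of most Toll-like receptors, 1.69-fold (0.0206), and Rnaseh2b, a subunit of the enzyme that clears RNA from DNA, 2.13-fold (0.00201). Aim2, a DNA sensor of the inflammasome, was 3.79-fold higher in Myc/NrasG12V (limma adjusted p = 0.0113) and Ikbke, a kinase of IRF3, 1.64-fold (0.0394). The calls of Tlr3 and Myd88 ended under all 3 other factors and on leaving out Myc/Akt1 replicate 1 or 2 or Myc/NrasG12V replicate 1 (limma adjusted p = 0.0595 to 0.0897), and that of Ikbke ended without any 1 library other than Myc/NrasG12V replicate 3 (0.0624 to 0.138). Mavs, the adaptor of the RIG-I-like receptors, had an estimate of -0.59 (limma adjusted p = 0.0899) and was called higher in Myc/Akt1 without Myc/Akt1 replicate 3 and with the replicate block (0.0348 in each, within a range up to 0.537). Tbk1, Mb21d1 (cGAS) and Adar were not called in any alternative, and Tmem173 (STING), with an estimate of 0.56 and a limma adjusted p of 0.1204, was called higher in Myc/NrasG12V by DESeq2, edgeR, median-of-ratios and upper-quartile factors (adjusted p from 0.0166).

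A wider list of 73 other interferon-induced genes had 16 genes (21.9%) higher in Myc/Akt1 and 2 (2.74%) higher in Myc/NrasG12V, both under the shares of all genes tested, 29.5% and 10%. Its median log2 difference was -0.28, near the -0.26 of all genes. Under the 3 factors, in the order above, these counts were 7, 7 and 6 against 4, 5 and 8, so that 9.59%, 9.59% and 8.22% of the list were higher in Myc/Akt1, beside the 19.4%, 18.3% and 16.4% of all genes. Without Myc/Akt1 replicate 2 or 3, 9 (12.3%) and 10 (13.7%) were higher in Myc/Akt1, beside 20.6% and 27.1% of all genes tested. Those of lowest adjusted p on the Myc/Akt1 side were Zc3hav1, the antiviral zinc-finger protein ZAP, at 28.4, 28.1 and 27.8 CPM in Myc/NrasG12V replicates 1, 2 and 3 and 70.8, 71.7 and 52.4 CPM in Myc/Akt1 replicates 1, 2 and 3 (limma adjusted p = 0.00142), the antiviral factor Samd9l (2.55-fold, 0.00173) and the proteasome activator subunit Psme2 (2.43-fold, 0.00220). On the other side stood Iigp1, a GTPase that attacks the vacuoles of intracellular parasites. Iigp1 was at 842, 683 and 659 CPM in Myc/NrasG12V replicates 1, 2 and 3 and at 173, 212 and 228 CPM in Myc/Akt1 replicates 1, 2 and 3, 3.56-fold higher in Myc/NrasG12V with no overlap (limma adjusted p = 2.71e-04). Ifitm1, chosen by name after its values were seen as the other gene of the 2, was 3.42-fold higher in Myc/NrasG12V (limma adjusted p = 0.00717).

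Of 25 tested GTPases and other targets of interferon gamma, 5 (20%) were higher in Myc/NrasG12V and 2 (8%) were higher in Myc/Akt1, with a median of 0.10. The shares of all genes tested were 10% and 29.5%. Some genes of this list, Iigp1 and Irgm1 among them, were also counted in the wider list above. Beside Iigp1 and Cxcl11, the 5 held Nlrc5, the activator of MHC class I genes (2.32-fold, limma adjusted p = 0.00707), Gvin1, a large GTPase at 1.69 ± 1.01 against 0.287 ± 0.0318 CPM (SD, n = 3; limma adjusted p = 0.0245), and Gbp8 (1.97-fold, 0.0461). The Gvin1 call ended without any 1 library other than Myc/NrasG12V replicate 3 (limma adjusted p = 0.0591 to 0.0749), and that of Gbp8 without any 1 other than Myc/NrasG12V replicate 2 (0.0565 to 0.150). Irgm1, a regulator of such GTPases, was 1.68-fold higher in Myc/Akt1 (limma adjusted p = 0.00967) and Gbp6 2.37-fold (0.0479), the latter call ending without any 1 library other than Myc/NrasG12V replicate 1 (0.0660 to 0.140). The count on the Myc/NrasG12V side was 2 without any 1 Myc/Akt1 library or Myc/NrasG12V replicate 1, where the share of all genes was 6.48% to 8.69%. Neither Irgm1 nor Gbp6 was called under the 3 other factors, where the counts were 6, 6 and 7 against 0. The former were 24%, 24% and 28% of the list, beside 15.0%, 15.9% and 17.7% of all genes tested, and all genes on the Myc/Akt1 side were at 19.4%, 18.3% and 16.4%. Tap1, Psmb8 and B2m, of antigen presentation, were not called by limma (adjusted p = 0.125, 0.541 and 0.673), although DESeq2, edgeR and the fit without Myc/NrasG12V replicate 3 called Tap1 higher in Myc/NrasG12V (adjusted p from 0.00892). Several of these genes have close relatives or copies, so the split of reads among the GBP and IRG families is uncertain.

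**Figure D4:**
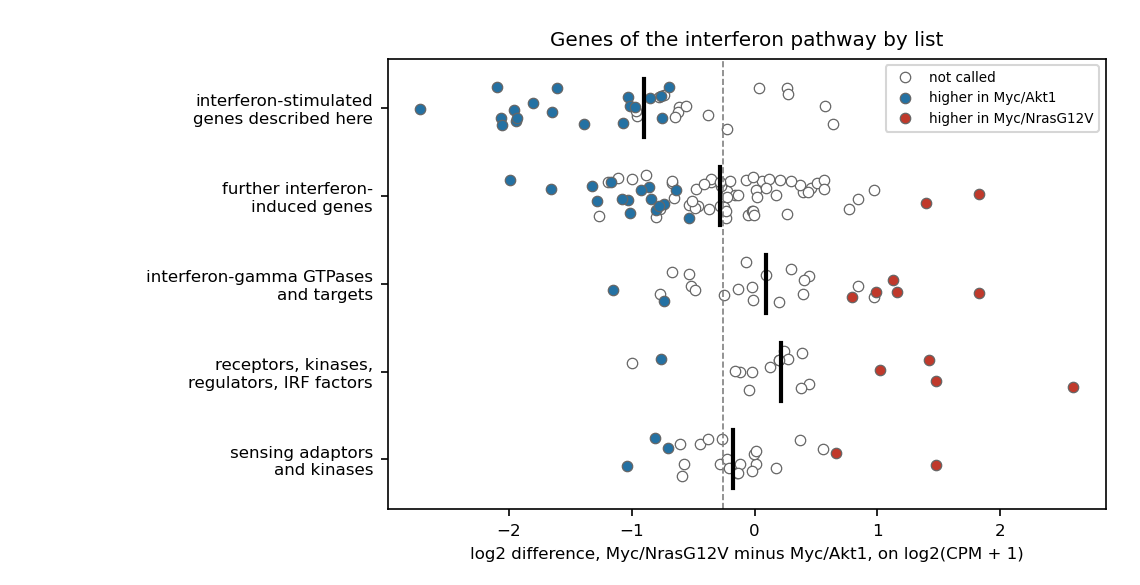
Log2 difference (Myc/NrasG12V minus Myc/Akt1) of each tested gene, as points, for the 34 interferon-stimulated genes and the lists of the interferon pathway, with the median of each list as a bar; blue points were called higher in Myc/Akt1, red points higher in Myc/NrasG12V and open points not called. The members' median (-0.90) lies below that of all genes (-0.26, dashed line), and the medians of the receptor list (0.22) and of the interferon gamma list (0.10) lie above it.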

How the data were processed

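Libraries of polyadenylated RNA were made with a stranded kit and sequenced single-end, per the labels' protocols. The authors deposited CPM per gene and library, under the header reads. Alignment and counting tools were STAR 2.6.1c and Subread 1.6.3, with edgeR 3.22.5 and the build GRCm38, per the submitters' processing notes; not given in the sources used here are the annotation release and the strand setting. Whole reads were recovered from the deposited CPM, within 0.01 read for 100% of values.

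Genes passing filterByExpr (14365) were fitted on log2(CPM + 1) by two-sided moderated tests in limma 3.58.1 (trended prior, R 4.3.3). Alternatives were 3 scaling factors, 2 other filters, pseudocounts of 0.1 and 0.5, edgeR 4.0.16 and DESeq2 1.42.0 on the recovered reads, a replicate block, and omission of single libraries. The fit was first tested on simulated data with a dispersion of 0.05. It recovered 2.50% of 1.5-fold, 52.6% of 2-fold and 100% of 4-fold changes, which were placed in the more abundant genes only. A gene that was not called may still differ, and these shares set no upper bound on its fold. Alb, for one, was not called though its mean was 3.30-fold higher in Myc/NrasG12V. Exon lengths and gene coordinates came from GENCODE M21 (GRCm38), which matched 37607 of 39179 identifiers. Promoter windows came from RefSeq.

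The members and lists were chosen with earlier results of these data known. All members could be named; of each other list, the 4 of lowest adjusted p and the pathway's carriers were named, except 1 that is not reported here. Irf5, Ikbke, Ifitm1, Gbp6, Gbp8, Cxcl11 as a gamma target and the gene pairs were chosen after their values were seen.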

Additional observations from a re-analysis of the deposited data

How the results depend on the processing

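The count of members higher in Myc/Akt1, 19, was 12 with DESeq2, 9 with edgeR, 11, 10 and 9 with TMM, median-of-ratios and upper-quartile scaling, 17 with the replicate block and 12 to 19 when 1 library was left out. It was 14 when every gene with a read was kept and 19 with a filter of 1 CPM in 3 libraries. The share of all genes called higher in Myc/Akt1 moved as well, from 29.5% to 19.4% with DESeq2, 17.5% with edgeR, 19.4%, 18.3% and 16.4% with the 3 scalings, 28.3% with the replicate block and 19.5% to 32.6% when 1 library was left out. Under those 2 filters that share was 16.7% and 31.5%. Members higher in Myc/NrasG12V numbered 0, and 1 with DESeq2, edgeR, median-of-ratios and upper-quartile factors, and 0 to 2 when 1 library was left out. The share of all genes called higher in Myc/NrasG12V, 10%, was 19.2% with DESeq2 and 16.6% with edgeR. With the 3 scalings that share was 15.0%, 15.9% and 17.7%. Of 120 tested genes in the lists of other pathway genes joined, 12 (10%) were higher in Myc/NrasG12V. That count was 25 (20.8%) with DESeq2 and 23 (19.2%) with edgeR. It was 16 (13.3%) with TMM, 19 (15.8%) with median-of-ratios and 24 (20%) with upper-quartile factors, and 7 to 16 when 1 library was left out. On the other side 21 were higher in Myc/Akt1, and 10 with DESeq2, 8 with edgeR, TMM and median-of-ratios factors, 7 with upper-quartile factors, 11 to 22 when 1 library was left out. The cause of these shifts was not tested. The members' median stayed negative, from -0.55 to -1.15.

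The replicate block, which left 17 members higher in Myc/Akt1, took numbers that the labels do not say are shared litters or days; same-numbered libraries correlated at -0.08, 0.11 and 0.09 in their deviations. Of 544 values of single members under the alternatives, 441 kept direction and side of the threshold, 81 lost a call, 9 gained one and 13 changed sign. The sign changes were Oas1a (-0.23 to 0.98 with 1 library left out), Oas3 (-0.35 to 0.27 likewise), Zbp1 (0.027 DESeq2, 0.022 edgeR, -1.29 to 0.017 with 1 library left out), Irf9 (0.12 DESeq2, 0.027 TMM, 0.11 edgeR, 0.062 median-of-ratios, 0.13 upper-quartile) and Ifi44 (0.0080 DESeq2, -0.76 to 0.13 with 1 library left out). Depth limits the interferon genes most, at 0 to 16 reads per group.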
